A study of Mus musculus with 15 samples.

Results

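The Frizzled receptors are the cell-surface proteins that bind Wnt ligands, and all 10 genes of the family, Fzd1 to Fzd10, were measured here among 19938 named genes in the gonadal white fat of male mice fed a high-fat diet. Members were chosen by gene name: a probe set was taken where its single annotated symbol was that of a Frizzled gene, and each member had 1 such probe set. The knockout animals were 8 Sfrp5 KO mice, whose Q27Stop allele places a stop codon in Sfrp5, a secreted protein that carries a Frizzled-like Wnt-binding domain. They were set against 7 wild-type mice. Every mouse of both genotypes was male, of strain C57BL6/J and 12 weeks old, and had been on a high-fat diet for 8 weeks from week 4 of life. Mice on a standard diet were not analysed here, so every signal describes fat under a high-fat diet. Each mouse gave 1 array, and the values are log2 signals per probe set after RMA, a method that corrects background and makes arrays comparable.

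A Frizzled receptor spans the membrane and holds a cysteine-rich domain outside the cell, which grips the lipid on a Wnt protein. With the co-receptors Lrp5 and Lrp6 it recruits Dishevelled and stabilises beta-catenin, and with other partners it steers cell polarity and JNK or calcium signals. In fat, beta-catenin signalling holds precursor cells back from becoming adipocytes. Soluble Frizzled-related proteins such as Sfrp5 hold the same kind of domain without a membrane anchor and compete for Wnt ligands.

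Sfrp5 itself, the targeted gene, averaged 6.69 ± 0.40 (SD, n = 8) in Sfrp5 KO arrays and 7.92 ± 0.24 (SD, n = 7) in wild-type arrays, a difference of -1.23 (SE 0.16; limma adjusted p = 0.0200), and 0 of 8 Sfrp5 KO arrays exceeded the wild-type mean. The call was lost when any of wild-type replicates 2, 3, 4 or 5 or Sfrp5 KO replicates 2, 5 or 8 was left out, while the difference stayed between -1.29 and -1.13. The tissue carried adipocyte markers at high signal: Adipoq, the gene of adiponectin, stood at the 99.7th percentile of named genes and Fabp4, a fatty acid binding protein, at the 99.9th. Array medians ranged from 6.99 to 7.07. Sfrp5 KO replicate 2 stood apart, since its mean over 5 epididymis genes was 12.6, against 5.76 to 7.19 in the other Sfrp5 KO arrays and 5.90 to 7.35 in wild-type arrays. Wild-type replicate 4 was the highest of its genotype on that list and the lowest, at 9.06, on 8 endothelial genes. Among wild-type arrays only Adam7 of the epididymis genes reached a high signal, up to 12.5, and the maxima of the others were 5.33 to 8.03. The maxima of all 5 in Sfrp5 KO arrays were 12.2 to 13.3. In bulk tissue, fewer cells of a type and less RNA per cell cannot be told apart.

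Promoter sequences of 6 members were read from RefSeq's GRCm38.p6 table. Those of Fzd2, Fzd3, Fzd6 and Fzd8 were not examined, so the promoter counts do not cover the whole family. Of the 6, 4 are shown. They belong to the 3 members with the highest array signals, Fzd4, Fzd7 and Fzd1, and to the member with the lowest, Fzd10. Each run is the 250 bases before the annotated start, 5′ to 3′ on the gene's strand, and capitals mark GC boxes, the motif GGGCGG read on both strands with overlapping matches counted. The Fzd4 promoter lies at chr7:89404116-89404365 on the plus strand, Fzd7 at chr1:59481897-59482146 on the plus strand, Fzd1 at chr5:4758217-4758466 on the minus strand and Fzd10 at chr5:128600856-128601105 on the plus strand.
Fzd4: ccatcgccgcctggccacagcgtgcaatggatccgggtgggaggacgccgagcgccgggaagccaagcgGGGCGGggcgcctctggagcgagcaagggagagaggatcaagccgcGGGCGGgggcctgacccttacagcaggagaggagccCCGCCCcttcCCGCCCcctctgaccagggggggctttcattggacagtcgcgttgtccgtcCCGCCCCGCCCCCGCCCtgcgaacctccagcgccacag
Fzd7: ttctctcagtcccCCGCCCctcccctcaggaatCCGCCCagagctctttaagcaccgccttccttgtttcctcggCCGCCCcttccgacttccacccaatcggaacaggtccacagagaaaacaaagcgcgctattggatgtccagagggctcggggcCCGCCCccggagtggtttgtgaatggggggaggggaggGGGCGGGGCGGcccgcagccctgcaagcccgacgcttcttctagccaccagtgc
Fzd1: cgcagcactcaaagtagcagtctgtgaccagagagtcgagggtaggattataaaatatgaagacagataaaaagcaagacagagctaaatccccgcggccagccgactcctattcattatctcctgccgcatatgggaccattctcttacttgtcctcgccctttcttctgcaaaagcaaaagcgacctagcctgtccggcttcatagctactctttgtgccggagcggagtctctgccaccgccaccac
Fzd10: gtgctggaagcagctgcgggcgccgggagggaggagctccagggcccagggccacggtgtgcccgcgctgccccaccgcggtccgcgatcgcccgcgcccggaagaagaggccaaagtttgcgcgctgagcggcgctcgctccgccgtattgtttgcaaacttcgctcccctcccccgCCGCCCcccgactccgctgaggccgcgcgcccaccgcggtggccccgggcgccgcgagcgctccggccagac

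The Fzd4 promoter held 7 GC boxes and 25 CpG dinucleotides at a G+C content of 72.8%, and the Fzd7 promoter 6 GC boxes and 17 CpG at 65.2%. Fzd1 differed from these, with 0 GC boxes, 12 CpG and 51.2% G+C, and it was the single one of the 6 promoters with the letters TATAAA, which occur on either strand in 12.4% of 32851 promoters of the same length. Fzd10, the member with the lowest signal, had 37 CpG at 76.4% G+C and 1 GC box. Fzd5 and Fzd9 also had 76.4% G+C, with 9 GC boxes and 1 GC box, and CCAAT was found in Fzd4, Fzd5 and Fzd7. The median promoter had 6 CpG and 52.4% G+C, GC boxes were present in 32.7% of all promoters and CCAAT in 33.8%. These matches describe the letters in the window and not bound factors. Among the 6 promoters read, the number of GC boxes did not follow the order of the array signals. Fzd5, with the most boxes of these, was the fifth of the family in signal and Fzd1, with none, the third.

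Fzd4, the receptor of Wnt ligands and of Norrin in the mouse retina, gave the highest signal of the family. Its mean over 15 arrays was 10.22 ± 0.15 (SD), at the 93.2nd percentile of named genes. Fzd7, a Wnt receptor of intestinal stem cells, followed at 8.61 ± 0.11, then Fzd1 at 8.36 ± 0.19 and Fzd6, which orients hair follicles in mice, at 8.04 ± 0.31. A middle group held Fzd5 (7.40), Fzd2 (7.35), Fzd3 (7.33) and Fzd9 (7.22), between the 49.9th and the 54.4th percentile. Fzd8, at 6.37, and Fzd10, at 6.36, were at the 29.4th and the 29.1st percentile. Probe sets differ in how well they bind, so this is an order of array signals and not of transcript numbers.

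Fzd4 exceeded Fzd7 in 15 of 15 arrays, by 1.61 ± 0.19 (SD), and their ranges did not overlap. The gap from Fzd9 down to Fzd8 was likewise present in 15 of 15 arrays, at 0.84 ± 0.15, without overlap. Fzd6 exceeded Fzd5 in 15 of 15 arrays as well, by 0.64 ± 0.40, although their ranges overlapped across mice. Fzd7 exceeded Fzd1 in 14 of 15 arrays by 0.25 ± 0.15. The other neighbours kept no firm order: Fzd1 over Fzd6 in 10 arrays, Fzd5 over Fzd2 in 8, Fzd2 over Fzd3 in 7, Fzd3 over Fzd9 in 10 and Fzd8 over Fzd10 in 9, with mean gaps below their SD.

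Detection calls were not used here, so 1228 olfactory, vomeronasal and taste receptor genes, which are mostly silent outside sensory tissue, served as a reference for dim signals. Their signals ran from 3.35 at the 5th percentile to 6.60 at the 95th, with a median of 4.80. Fzd1 to Fzd7 and Fzd9 lay above that 95th percentile in 15 of 15 arrays. Fzd8 lay above it in 1 of 15 arrays and Fzd10 in 0, so the signals of these 2 members cannot be told from those of mostly silent genes.

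**Figure D1:**
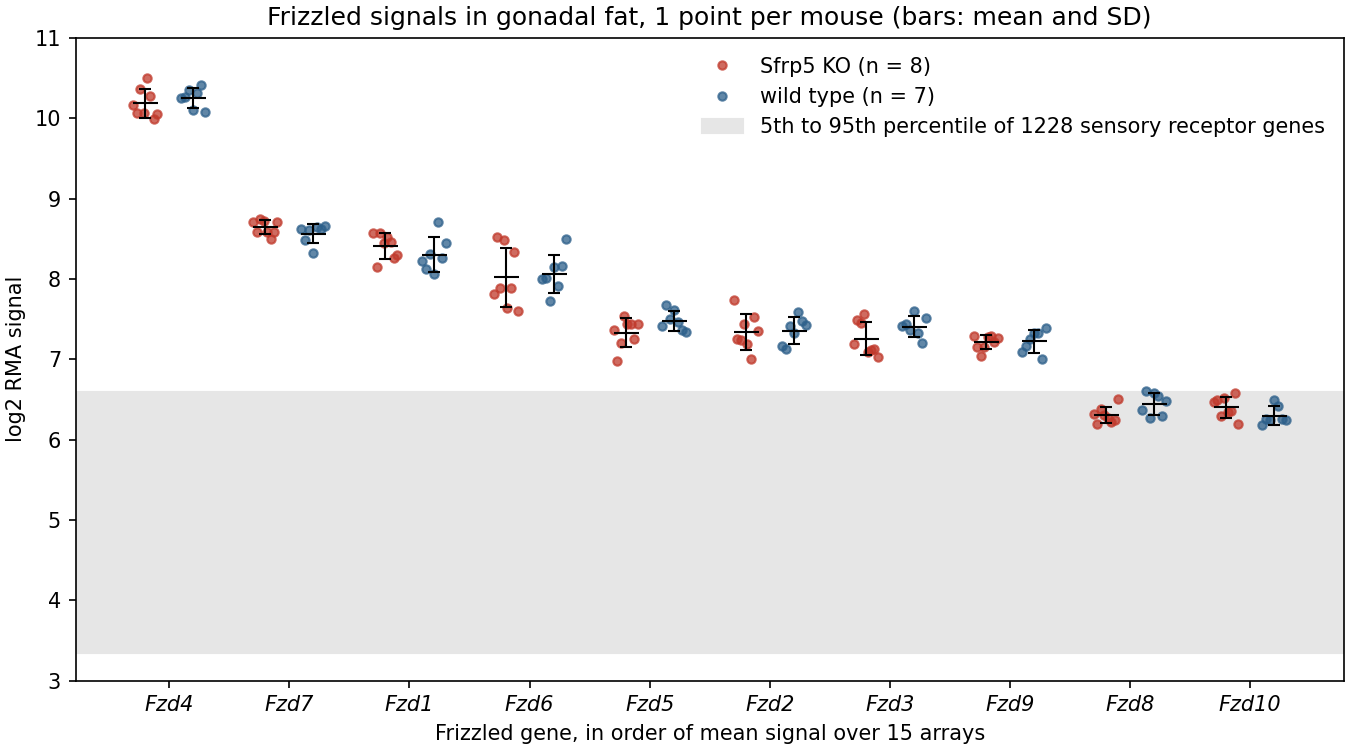
Log2 RMA signal of each Frizzled gene (horizontal axis, in order of mean signal) in 8 Sfrp5 KO mice (left of each pair, red) and 7 wild-type mice (right, blue), with black bars for mean and SD and a grey band for the 5th to 95th percentile of sensory receptor genes. Fzd4 sits apart at about 10.22, Fzd8 and Fzd10 sit inside the grey band, and the genotypes overlap for every member.

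The comparison of genotypes asked whether loss of Sfrp5, a soluble competitor for Wnt ligands, went along with altered transcript levels of the receptors. Of the 10 members, 0 passed limma's Benjamini-Hochberg threshold of 0.05, where 0.0337% of 35557 probe sets did. At an unadjusted p below 0.05 there was 1 member, Fzd8, against 9.97% of probe sets and 1333 of 19938 named genes. The arrays of the genotypes overlapped for all 10 members, whereas 0.217% of probe sets had no overlap. Differences, Sfrp5 KO minus wild type, were positive for 3 members and negative for 7, where 8936 named genes were positive and 11002 negative. The members' differences ran from -0.15 to 0.11, with a median of -0.03 beside -0.01 over all named genes. Their 95% intervals reached down to -0.37 and up to 0.31, both limits set by Fzd6 and Fzd1.

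Fzd5 and Fzd8 form a pair of close relatives, and both were lower on average in Sfrp5 KO arrays. Fzd8, whose mouse cysteine-rich domain was crystallised with a Wnt, ranged from 6.20 through a median of 6.29 to 6.50 in Sfrp5 KO mice and from 6.26 through 6.48 to 6.60 in wild-type mice. It lay below the wild-type mean in 7 of 8 Sfrp5 KO arrays, and the exception was replicate 8. The difference was -0.14 (SE 0.07, 95% interval -0.28 to -0.0013; limma adjusted p = 0.497), within signals that cannot be told from those of mostly silent genes. The unadjusted threshold was missed in 10 of 15 omissions of 1 array (wild-type replicates 2, 4, 5 and 7, Sfrp5 KO replicates 1, 2, 4, 5, 6 and 7). It was also missed with a robust, intensity-trended prior, after quantile normalization and without wild-type replicate 4 and Sfrp5 KO replicate 2 together. Fzd5, which acts in Paneth cell maturation in the mouse gut, ranged from 6.98 through 7.40 to 7.54 in Sfrp5 KO mice and from 7.33 through 7.47 to 7.67 in wild-type mice. Its lowest value by far, 6.98, came from Sfrp5 KO replicate 2, the array with the high epididymis signal. The difference was -0.15 (SE 0.08, 95% interval -0.32 to 0.02; limma adjusted p = 0.586), and it was -0.10 without that array and -0.077 without it and wild-type replicate 4.

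Fzd3 and Fzd6 are the members best known for planar polarity and, for Fzd3, axon guidance in mice. Fzd3 ranged from 7.03 through 7.16 to 7.56 in Sfrp5 KO mice and from 7.20 through 7.41 to 7.61 in wild-type mice. Sfrp5 KO replicates 2, 3 and 4, at 7.45 to 7.56, sat within the wild-type range, and the other 5 lay at or below 7.19, under every wild-type array. The difference was -0.15 (SE 0.09, 95% interval -0.34 to 0.04; limma adjusted p = 0.641), and it was -0.092 without Sfrp5 KO replicates 7 and 8. Fzd6 ranged from 7.60 through 7.89 to 8.52 in Sfrp5 KO mice and from 7.72 through 8.01 to 8.49 in wild-type mice. Its spread was the widest of the family, with a within-genotype SD of 0.32 at the 91.5th percentile of named genes. The difference was -0.04 (SE 0.15; limma adjusted p = 0.957), with an interval from -0.37 to 0.28 that leaves room for a change in either direction.

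Fzd1, Fzd2 and Fzd7 are the third set of relatives and all can carry beta-catenin signals. Fzd7 ranged from 8.499 through 8.65 to 8.75 in Sfrp5 KO mice and from 8.32 through 8.62 to 8.66 in wild-type mice. It was above the wild-type mean in 7 of 8 Sfrp5 KO arrays, but the lowest wild-type value came from replicate 4, and the difference was 0.08 (SE 0.06, 95% interval -0.05 to 0.21; limma adjusted p = 0.749). Without that array it was 0.037. Fzd1 ranged from 8.15 through 8.45 to 8.57 in Sfrp5 KO mice and from 8.06 through 8.26 to 8.71 in wild-type mice. The highest and the lowest value of Fzd1 both came from wild-type mice, replicates 5 and 4, and the difference was 0.11 (SE 0.09; limma adjusted p = 0.787). It was 0.17 without replicate 5 and 0.067 without replicate 4. Fzd2, a receptor for Wnt5a, ranged from 7.001 through 7.30 to 7.74 in Sfrp5 KO mice and from 7.13 through 7.41 to 7.58 in wild-type mice, with a difference of -0.02 (SE 0.10, 95% interval -0.23 to 0.20).

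Among Fzd4, Fzd9 and Fzd10, Fzd4 ranged from 9.99 through 10.12 to 10.50 in Sfrp5 KO mice and from 10.08 through 10.27 to 10.41 in wild-type mice. Both its lowest value, from replicate 7, and its highest, from replicate 5, were in Sfrp5 KO mice. The difference was -0.07 (SE 0.08, 95% interval -0.24 to 0.10; limma adjusted p = 0.853). It was -0.11 without Sfrp5 KO replicate 5, -0.040 without Sfrp5 KO replicate 7, -0.042 without wild-type replicate 6 and -0.013 without Sfrp5 KO replicates 7 and 8. Fzd9, which promotes bone formation by osteoblasts in mice, ranged from 7.04 through 7.24 to 7.29 in Sfrp5 KO mice and from 7.01 through 7.26 to 7.38 in wild-type mice. All 8 Sfrp5 KO values lay inside the wild-type range, and the difference was -0.01 (SE 0.06, 95% interval -0.15 to 0.13). Fzd10 ranged from 6.19 through 6.41 to 6.57 in Sfrp5 KO mice and from 6.18 through 6.25 to 6.50 in wild-type mice, a difference of 0.11 (SE 0.07; limma adjusted p = 0.665) in a dim probe set.

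**Figure D2:**
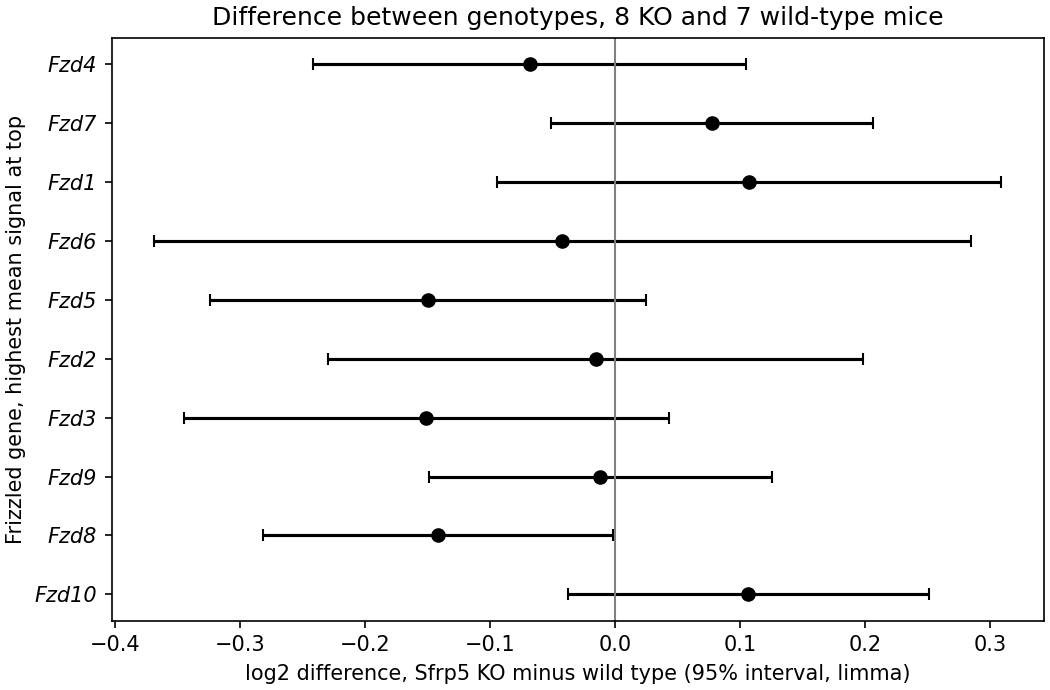
Log2 difference between Sfrp5 KO and wild-type means for each Frizzled gene (horizontal axis), with limma's 95% interval as a bar and the gene of highest mean signal at the top. The intervals of 9 members include 0, and that of Fzd8 ends at -0.0013.

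Members were then compared with each other over mice, to see whether the receptors vary together once the genotype means are removed. Of 45 pairs, 0 passed a permutation test within genotypes after Benjamini-Hochberg adjustment, and 2 had an unadjusted p below 0.05. The highest correlation joined the relatives Fzd3 and Fzd6, with Pearson r = 0.62 (n = 15 arrays, permutation p = 0.0294, adjusted p = 0.636) and Spearman rho = 0.59 (permutation p = 0.0400). Without the 2 arrays farthest from the median of Fzd3 it was 0.36. It was 0.71 within Sfrp5 KO mice and 0.37 within wild-type mice. Fzd4 and Fzd6, the receptor of highest signal and the most variable one, went in opposite directions, with r = -0.59 (n = 15, permutation p = 0.0356, adjusted p = 0.636) and rho = -0.49 (permutation p = 0.0885). Without the 2 arrays farthest from the median of Fzd4 the r was -0.46, and it was -0.58 in Sfrp5 KO and -0.64 in wild-type mice.

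Close relatives tended to positive values: in 8 pairs from the same subfamily the median r was 0.40 and 6 were positive, against a median of -0.06 and 15 positive in the other 37 pairs. Fzd1 with Fzd7 had 0.56, Fzd2 with Fzd7 0.45, Fzd5 with Fzd8 0.44 and Fzd1 with Fzd2 0.36. Fzd4 was the exception, at -0.30 with Fzd9 and -0.40 with Fzd10. All pairs share the same arrays, and the difference between same-subfamily and other pairs was not tested.

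Fat holds several cell types, so each member was set against the mean signal of 10 marker lists, again with genotype means removed. Of 100 relations 3 passed after Benjamini-Hochberg adjustment, and 16 had an unadjusted p below 0.05. With Spearman rho in place of Pearson r, 0 passed. The lists move together in part: the adipocyte mean correlated with the endothelial mean at 0.68 and with the mesothelial mean at -0.72 over the 15 arrays, so the 3 relations are not independent.

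Fzd3 was lower where endothelial markers were higher, with r = -0.75 (n = 15 arrays, permutation p = 0.00043, adjusted p = 0.0405) and rho = -0.76 (permutation p = 0.00081). It was -0.82 within Sfrp5 KO mice and -0.78 within wild-type mice, and -0.68 without the 2 arrays farthest from the median of Fzd3. Without Sfrp5 KO replicate 2 and wild-type replicate 4, the arrays lowest in endothelial markers, r was -0.74 but did not pass (adjusted permutation p = 0.138). Leaving out 1 array at a time gave r from -0.80 to -0.70, past the threshold in 5 of 15 cases. The endothelial list includes Cdh5, the cadherin of vessel walls. Of its 8 measured genes all 8 had a negative genotype difference, with a median of -0.11, where 11002 of 19938 named genes were negative. These 8 genes share the same arrays, so their signs are not independent. The list mean per array ran from 9.05 to 9.50 in Sfrp5 KO mice and from 9.06 to 9.63 in wild-type mice. The part of this list in the Fzd3 difference was not tested.

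Fzd6 was lower where adipocyte markers were higher, with r = -0.81 (n = 15 arrays, permutation p = 0.00081, adjusted p = 0.0405) and rho = -0.62 (permutation p = 0.0152). It was -0.97 within Sfrp5 KO mice and -0.60 within wild-type mice, and -0.69 without the 2 arrays farthest from the median of Fzd6. Fzd6 was 8.33 to 8.52 in 4 arrays, Sfrp5 KO replicates 2, 4 and 7 and wild-type replicate 7, and 7.60 to 8.16 in the other 11. One-at-a-time omission gave r from -0.90 to -0.76, past the threshold in 5 of 15 cases. Without wild-type replicate 4 and Sfrp5 KO replicate 2 together, r was -0.77 but did not pass (adjusted permutation p = 0.138). The adipocyte list had 5 of 7 measured genes with a positive genotype difference, where 8936 of 19938 named genes were positive. The list mean ran from 11.87 to 12.15 in Sfrp5 KO mice and from 11.78 to 12.12 in wild-type mice.

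Fzd10 was higher where mesothelial markers, genes of the cell sheet that covers visceral fat, were higher, with r = 0.74 (n = 15 arrays, permutation p = 0.00142, adjusted p = 0.0473) and rho = 0.67 (permutation p = 0.00843). It was 0.83 within Sfrp5 KO mice and 0.71 within wild-type mice, and 0.70 without the 2 arrays farthest from the median of Fzd10. It passed in 1 of 15 cases with 1 array left out, with r from 0.69 to 0.82, and did not pass after quantile normalization (r = 0.61, adjusted permutation p = 0.237) or without wild-type replicate 4 and Sfrp5 KO replicate 2 (r = 0.67, adjusted permutation p = 0.138). All 8 mesothelial markers had a positive genotype difference, with a median of 0.46, where 8936 of 19938 named genes were positive. Of these markers 4 had an unadjusted p below 0.05, against 9.97% of probe sets and 1333 of 19938 named genes. After limma's adjustment 0 passed. The list mean ran from 7.86 to 8.74 in Sfrp5 KO mice and from 7.31 to 8.54 in wild-type mice. It leans on the keratin genes Krt8 and Krt18, whose SDs within genotypes were 0.97 to 1.16, against 0.24 to 0.71 for the other markers. Wild-type list means fell into separate ranges, 7.31 to 7.79 in 4 arrays and 8.39 to 8.54 in the other 3. The part of this list in the Fzd10 difference of 0.11 was not tested, and the Fzd10 signal stayed within the range of mostly silent genes.

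Relations that did not pass included Fzd3 with Schwann cell markers (r = -0.77, adjusted permutation p = 0.056), Fzd2 with progenitor and fibroblast markers (r = 0.73, adjusted permutation p = 0.0780), Fzd3 with adipocyte markers (r = -0.73, adjusted permutation p = 0.0642) and Fzd4 with adipocyte markers (r = 0.66, adjusted permutation p = 0.105). Fzd8 with macrophage markers had r = 0.61 (adjusted permutation p = 0.105), and 0.42 without the 2 arrays farthest from the median of Fzd8. Its rho was 0.48 (adjusted permutation p = 0.351), and Fzd8 signals cannot be told from those of mostly silent genes. After quantile normalization the relations of Fzd3 with Schwann cell, Fzd2 with progenitor and fibroblast and Fzd8 with macrophage markers passed, each at an adjusted permutation p of 0.0418. Fzd7 had no relation with an unadjusted p below 0.05, and its lowest adjusted p was 0.369. For Fzd5 and epididymis genes r was -0.62 over 15 arrays and 0.08 without the 2 arrays farthest from the median of Fzd5.

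**Figure D3:**
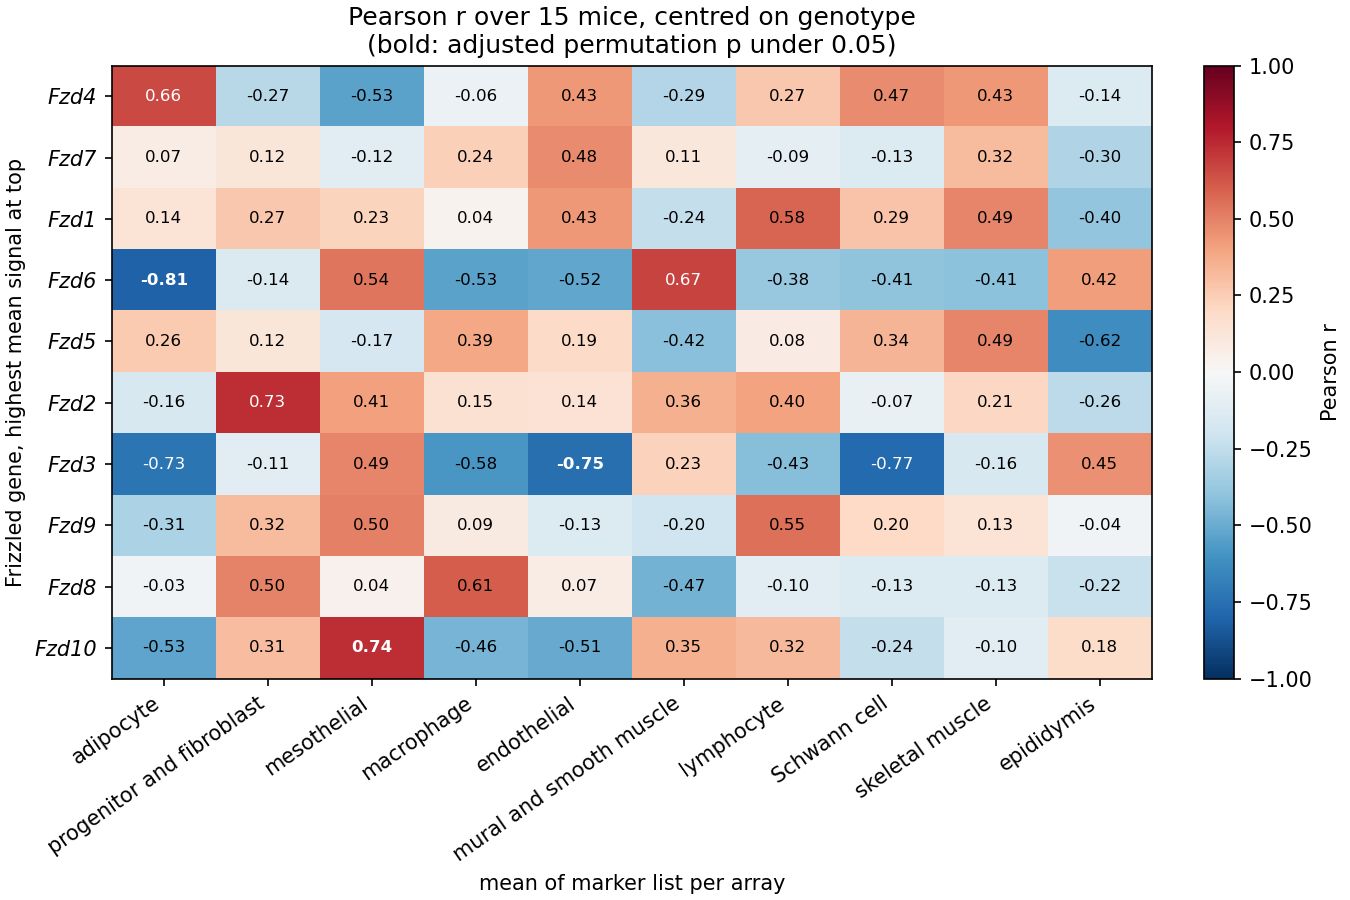
Pearson r over 15 mice between each Frizzled gene (rows, highest mean signal at the top) and the mean of each marker list (columns), after removing genotype means, with red for positive and blue for negative values. Bold numbers mark the 3 relations that passed, Fzd3 with endothelial (-0.75), Fzd6 with adipocyte (-0.81) and Fzd10 with mesothelial markers (0.74).

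**Figure D4:**
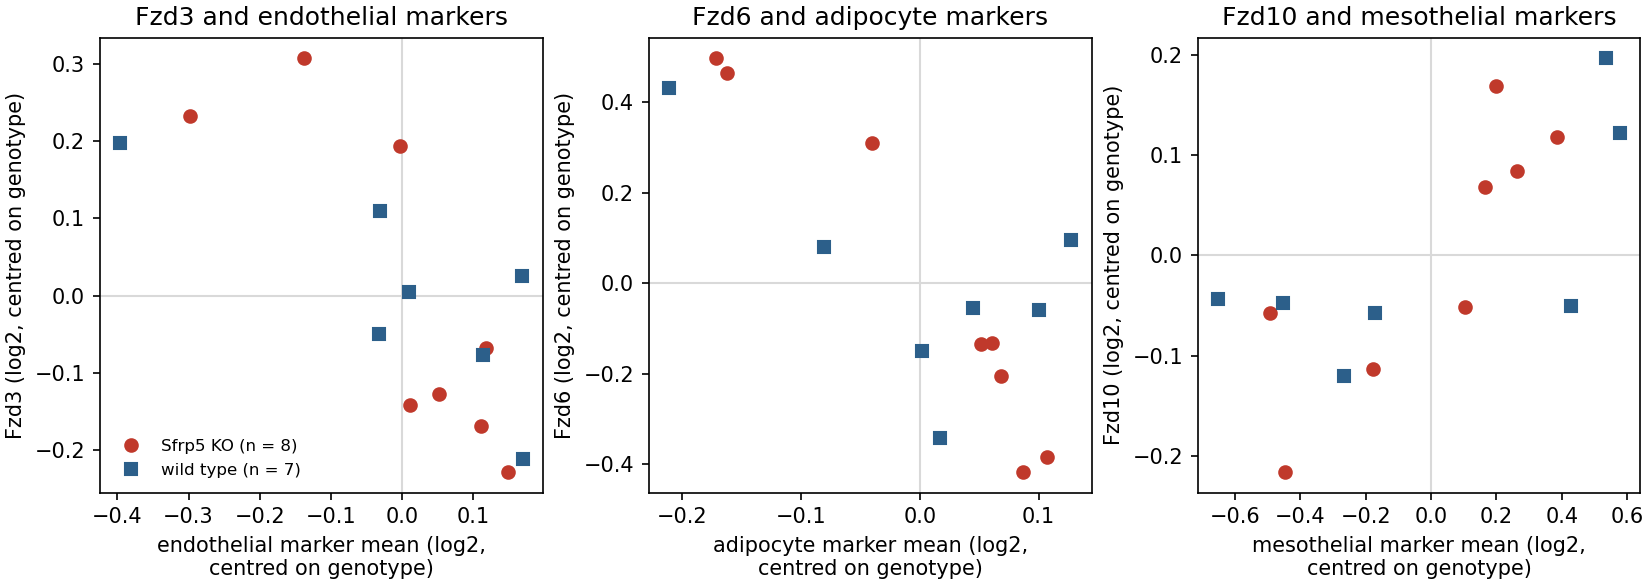
Each of those 3 relations with 1 point per mouse, as log2 marker mean (horizontal axis) and log2 Frizzled signal (vertical axis), both minus the genotype mean, for 8 Sfrp5 KO (red circles) and 7 wild-type mice (blue squares). In the middle panel 4 mice stand apart at high Fzd6 and the other 11 lie below them.

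The named genes whose pattern over the 15 arrays was most like that of Fzd4, with genotype means removed, were Mtg1, a GTPase of mitochondrial ribosomes (r = 0.93, rho = 0.93), Vps35l, an endosomal sorting protein (r = 0.90, rho = 0.90), and Clec2d, a lectin-like receptor (r = 0.88, rho = 0.90). Without the 2 arrays farthest from the median of Fzd4 the r values were 0.93, 0.88 and 0.83. For Fzd7 they were Zfp281, a zinc-finger transcription factor (r = 0.85, rho = 0.66), Ddx52, an RNA helicase (r = 0.81, rho = 0.56), and 2810002D19Rik (r = 0.80, rho = 0.64), and without the 2 farthest arrays 0.76, 0.41 and 0.57. Each is the top of 19928 genes, so a high value is built into the choice and no p is given. The 95th percentile of r over these genes was 0.60 for Fzd4 and 0.46 for Fzd7.

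The genes that work with the receptors were read from 8 lists with 68 measured genes. None of the 68 passed limma's adjusted threshold, 35 had a positive and 33 a negative genotype difference, and 2 had an unadjusted p below 0.05, where 9.97% of probe sets and 1333 of 19938 named genes did. Their median difference was 0.00. Several of the genes given below were dim. Wnt2, Frzb and Lgr5 lay above the 95th percentile of the sensory receptor genes in 0 of 15 arrays. Rspo4 did so in 1 array, Sp5 and Vangl2 in 2 each and Prickle2 in 7. The signals of Wnt2, Frzb, Lgr5, Rspo4, Sp5 and Vangl2 in the remaining arrays cannot be told from those of mostly silent genes.

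Of 19 Wnt ligands, 11 were on the positive side, with a median of 0.01. Wnt5b, which promotes adipogenesis in cultured mouse cells, differed by 0.15 (SE 0.09; limma adjusted p = 0.630), Wnt2 by 0.10 and Wnt7b by -0.06. Wnt4 (8.05) and Wnt2b (7.63) had the highest ligand signals, with differences of 0.07 and 0.06. Among the soluble Frizzled-related proteins and Norrin, 2 of 5 were positive. Sfrp4 had the highest signal of that list, at 9.29, and differed by 0.16 (SE 0.24), Sfrp1 by 0.27 (SE 0.29), and Frzb by -0.13, while Sfrp2 averaged 8.80 in both genotypes.

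Differences of co-receptors and partners of the Frizzled proteins were split, 5 positive and 5 negative. Lrp6, the Wnt co-receptor, averaged 9.78 ± 0.13 (SD, n = 8) in Sfrp5 KO arrays and 9.94 ± 0.11 (SD, n = 7) in wild-type arrays, and lay below the wild-type mean in 8 of 8 Sfrp5 KO arrays. Its difference of -0.15 (SE 0.07) had a limma adjusted p of 0.459, and Lrp6 was one of the 2 genes past the unadjusted threshold. Leaving out any 1 of wild-type replicates 1, 2, 3, 5, 6 and 7 put Lrp6 short of that threshold. So did leaving out Sfrp5 KO replicate 2, 7 or 8. Lrp5, on the chromosome that carries Sfrp5, differed by -0.07 and Ror1, a receptor tyrosine kinase for Wnt5a, by 0.15. Tspan12, the tetraspanin that assists Fzd4 in Norrin signalling, had the highest signal of the list, at 11.72 and the 98.5th percentile, and differed by -0.01 (SE 0.09).

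Genes that set the amount of Frizzled at the cell surface, the ubiquitin ligases Znrf3 and Rnf43 with the Lgr receptors and R-spondins that restrain them, had 4 positive and 5 negative differences. Rspo1 differed by 0.30 (SE 0.18; limma adjusted p = 0.640), Rspo4 by -0.18, Lgr5 by -0.08 and Lgr4, with the highest signal of the list, by -0.04. In the intracellular beta-catenin arm, 5 of 9 were positive. Csnk1a1, a kinase that primes beta-catenin for destruction, was above the wild-type mean in 8 of 8 Sfrp5 KO arrays and differed by 0.11 (SE 0.04; limma adjusted p = 0.413), the other gene past the unadjusted threshold. Csnk1a1 stayed past it with each array left out. It missed it after quantile normalization, with the replicate block, and without wild-type replicate 4 and Sfrp5 KO replicate 2 together. Apc, a scaffold of the destruction complex, differed by -0.14, Gsk3b by 0.08 and Ctnnb1, the gene of beta-catenin, by 0.01.

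The planar polarity arm had 4 of 8 positive, with Prickle2 at -0.13, Vangl2 at 0.11, Celsr1 at 0.14, Daam1 at -0.05 and Vangl1 at -0.07. Of 7 Wnt target and feedback genes 4 were positive. Sp5 differed by 0.20 (SE 0.11) in a dim probe set. Apcdd1, an inhibitor of Wnt signalling at the membrane, differed by -0.21 (SE 0.12), Axin2 by 0.21 (SE 0.13) and Nkd1 by 0.01. Smo, the Hedgehog-pathway relative of the Frizzled proteins, averaged 7.72 ± 0.07 (SD, n = 8) in Sfrp5 KO arrays and 7.76 ± 0.11 (SD, n = 7) in wild-type arrays, a difference of -0.03 (SE 0.06; limma adjusted p = 0.894).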

How the data were processed

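Gonadal fat RNA of 15 mice was labelled with biotin and hybridised to Affymetrix mouse arrays, 1 per mouse. The authors deposited log2 values, 1 for each probe set, made with RMA per the submitters' processing notes. These notes list Affymetrix Expression Console 1.1.2800.19935, affy 1.18 and limma, with no role for any. Sources used here name no genome build, and detection calls were not used. The number of arrays limits precision. Of 35557 probe sets, 21789 had 1 gene symbol in the platform annotation, 1621 several and 12147 none. Symbols were updated through RefSeq gene identifiers (21698 matched), and a gene was its brightest probe set. Some listed genes had no such probe set, and the counts are over measured genes.

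Genotypes were tested by lmFit and eBayes of limma 3.58.1 (R 4.3.3), two-sided, without covariate or filter, over all probe sets, with Benjamini-Hochberg adjustment and a threshold of 0.05. The fit was tested on simulated data. Nothing says how the mice relate, so p-values measure the spread between these samples. Correlations used values centred on the genotype mean and 100000 permutations within genotype, two-sided, adjusted over 45 pairs or 100 member and marker relations. Named were all members, Sfrp5, Smo, in each list the 3 genes with the lowest p and the 2 with the highest signal, and the 3 genes most like Fzd4 and Fzd7. Members and lists were chosen with earlier results of these data known. Adipoq and Fabp4 were named after their values were seen. Array positions given by the labels put all wild-type arrays before all Sfrp5 KO arrays, so position and genotype cannot be told apart. Same-numbered arrays of the genotypes deviated together with correlations of -0.12 to 0.25, so the numbers were not taken as pairs. The closing section gives the alternatives: normalization, filter, variance model, array weights, omitted arrays, and a block for replicate number.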

Additional observations from a re-analysis of the deposited data

How the results depend on the processing

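The count of Frizzled members past the threshold was 0 under quantile normalization, array median centring, dim probe sets left out, an intensity trend with robust prior, array weights, each array left out, Sfrp5 KO arrays 7 and 8 left out, wild-type array 4 and Sfrp5 KO array 2 left out, and the replicate block. With each member having 1 probe set, averaging probe sets changes nothing. The pathway count was 0 in the same fits. Fzd9 turned positive with array weights (0.0014) and without wild-type array 4 and Sfrp5 KO array 2 (0.0137), and Fzd6 with the replicate number as a block (0.0174). With 1 array left out, Fzd2 ranged from -0.0722 to 0.0331, Fzd9 from -0.0480 to 0.0150 and Fzd6 from -0.11 to 0.0298, and no other member changed sign in any setting. The Sfrp5 difference, which checks the labels, was -1.17 without wild-type array 4 and Sfrp5 KO array 2 (limma adjusted p = 0.119), -1.28 with the replicate block (limma adjusted p = 0.3001) and -1.29 to -1.13 with 1 array left out, where it passed in 8 of 15 fits. The count of 3 relations between members and marker lists became 0 with Spearman rho, 0 without wild-type array 4 and Sfrp5 KO array 2, 5 with quantile normalization and 0 to 3 with 1 array left out. Quantile normalization lost Fzd10 with mesothelial markers and added Fzd2 with progenitor and fibroblast, Fzd8 with macrophage and Fzd3 with Schwann cell markers. Pairs of members past the threshold stayed at 0 in the alternatives run. The causes of these shifts were not tested. Among the members, Fzd8 and Fzd10 are limited by signal over background.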
